A study of Homo sapiens with 9 samples.

Results

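The chaperonin TRiC, also called CCT, is the barrel-shaped folding machine of the eukaryotic cytosol, and its transcripts were followed here in MV4-11 cells exposed to JPX-0700 or JPX-0750. The 8 genes of its ring subunits (TCP1, CCT2, CCT3, CCT4, CCT5, CCT6A, CCT7 and CCT8) were chosen by symbol as subunits of 1 complex, and each had 1 row among the 26929 genes of the table. MV4-11 is an established line of acute myeloid leukaemia that carries an internal tandem duplication in the receptor kinase FLT3 and a KMT2A fusion. Cells were incubated for 24 h with JPX-0700, with JPX-0750 or with the solvent DMSO as the control, and each of these 3 groups had 3 libraries, 9 in all. The series title names both compounds as degraders that act on STAT3 and STAT5. The labels state no dose, so the compounds are compared at the same time but at doses that are not known to match. All 9 libraries are of 1 line, and whether replicates were separate cultures is not stated, so p-values measure the spread between these samples, which may be technical.

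Each ring of TRiC is built from 8 related but distinct subunits in a fixed order, and the barrel holds a pair of such rings stacked back to back. ATP binding and hydrolysis close a built-in lid over the client, which folds in the chamber. Actin and tubulin are obligate clients, many proteins with WD40 repeats need TRiC, and STAT3 is among the reported clients. The cochaperone prefoldin hands newly made actin and tubulin to the barrel. Work in yeast divided the ring into a side that binds ATP strongly (CCT2, CCT4, CCT5 and CCT7) and a side that binds it weakly (TCP1, CCT3, CCT6A and CCT8), and the subunits are described in that order.

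The 8 genes lie on 7 chromosomes of GRCh38. On the strong ATP side, CCT2 lies at chr12:69585459-69601570 on the plus strand, CCT4 at chr2:61868085-61888671 on the minus strand, CCT5 at chr5:10249921-10266412 on the plus strand, and CCT7 at chr2:73234308-73253005 on the plus strand. On the weak side, TCP1 lies at chr6:159778498-159789602 on the minus strand, CCT3 at chr1:156308968-156338292 on the minus strand, CCT6A at chr7:56051765-56063989 on the plus strand, and CCT8 at chr21:29056326-29073648 on the minus strand. An intron of TCP1 holds SNORA20, a small nucleolar RNA of the H/ACA box class, whose members guide pseudouridine formation in other RNAs. SNORA20 lies on the minus strand, as its host gene does, between exons 9 and 10 of a TCP1 transcript with 12 exons. None of its bases falls in an exon of the 9 protein-coding TCP1 transcripts of GENCODE 29, and 12 of its bases lie in a retained-intron transcript.

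Libraries held 739418 to 1852375 reads on genes with JPX-0700, 726043 to 1941860 with JPX-0750 and 2701317 to 6305586 with DMSO, so the treated values rest on fewer reads. Libraries were made with QuantSeq, in which priming on poly(A) places reads near transcript ends. The values are normalised counts, which are reads divided by 1 factor per library. Of the libraries of each group, JPX-0700 replicate 3, JPX-0750 replicate 3 and DMSO replicate 1 detected the fewest genes (10027, 10407 and 9816). JPX-0700 replicate 3 also correlated least with its partners (r = 0.481 and 0.468 across genes with a mean of at least 50 normalised counts, against 0.856 between replicates 1 and 2). JPX-0750 replicate 3 stood apart as well (r = 0.628 and 0.648, against 0.926 between replicates 1 and 2 of its group). Several subunit values below are given without JPX-0700 replicate 3. The summed normalised count of 8 myeloid markers ran from 2203 to 5041 with JPX-0700, from 2047 to 4058 with JPX-0750 and from 5678 to 9541 with DMSO, and most of it was LYZ (1152 to 2659, 801 to 2742 and 4055 to 7377 in the same groups). Not all 8 went that way: CD68 had 217, 149 and 5.56 with JPX-0700, 168, 255 and 120 with JPX-0750, and 84.4, 82.8 and 152 with DMSO. The summed level of 4 epithelial and fibroblast markers ran from 5.56 to 27.6 with JPX-0700, from 18.2 to 108 with JPX-0750 and from 0 to 5.75 with DMSO. COL1A1, a collagen gene of fibroblasts, was above 0 in the 6 treated libraries (4.55 to 108) and at 0 with DMSO, and EPCAM, which defines epithelial cells, was at 0 in every library. The sum of 4 T and NK markers ran from 22.4 to 69.5, 3.33 to 59.1 and 32.3 to 52.1 for JPX-0700, JPX-0750 and DMSO, that of 3 B cell markers from 5.56 to 23.0, 0 to 27.3 and 2.30 to 17.1, and that of red cell markers was at most 2.15. The part of these markers in the subunits' values was not tested.

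Taken as 1 complex, the subunits supplied a smaller share of the reads in treated libraries. Reads on the 8 genes made up 0.163%, 0.150% and 0.140% of all reads in the JPX-0700 libraries, 0.122%, 0.149% and 0.220% in the JPX-0750 libraries, and 0.364%, 0.353% and 0.353% in the DMSO libraries. Every treated library lay below every DMSO library, and the DMSO libraries lay close together. The mean shares were 0.151% ± 0.0114 with JPX-0700, 0.164% ± 0.0510 with JPX-0750 and 0.357% ± 0.00644 with DMSO (SD, n = 3 each). Among reads on protein-coding genes alone, the mean shares were 0.193% ± 0.0176, 0.216% ± 0.0627 and 0.378% ± 0.00590 for JPX-0700, JPX-0750 and DMSO. On the authors' scale the difference was smaller, at a summed normalised count of 5919 ± 1168 with JPX-0700, 5496 ± 1432 with JPX-0750 and 8347 ± 605 with DMSO, and each treated library was again below the DMSO range. With each library scaled to the same total, the median log2 fold change over all genes was -0.52 with JPX-0700 and -0.25 with JPX-0750. The subunits' medians on that scale were -1.46 and -1.24. In bulk RNA, fewer subunit transcripts per cell, more of other RNAs and a different mix of cell states cannot be told apart.

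The make-up of the subunit pool was read as each gene's share of the pool's reads, which the test used could not have passed for any gene. TCP1 supplied 17.1% ± 2.91 of the pool's reads with JPX-0750 and 3.81% ± 0.769 with DMSO, and the groups did not overlap. With JPX-0700 the TCP1 share was 8.71% ± 6.47 and ran from 1.5% to 14.0%, which spans the DMSO range of 3.19% to 4.67%. CCT7 supplied 5.19% ± 1.91 with JPX-0700, 7.32% ± 2.05 with JPX-0750 and 11.6% ± 1.54 with DMSO, and both treated groups lay below DMSO. CCT8 supplied 18.2% ± 9.17 with JPX-0700, 16.4% ± 2.64 with JPX-0750 and 23.5% ± 2.56 with DMSO, and only the JPX-0750 libraries all lay below DMSO. For the TCP1 and CCT8 shares with JPX-0750 and the CCT7 share with either compound, an exact permutation test (two-sided) returned p = 0.1, the lowest value possible with 3 against 3 libraries. Adjusted over the 16 tests of 8 subunits and 2 compounds these were 0.4, so none passed.

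**Figure D1:**
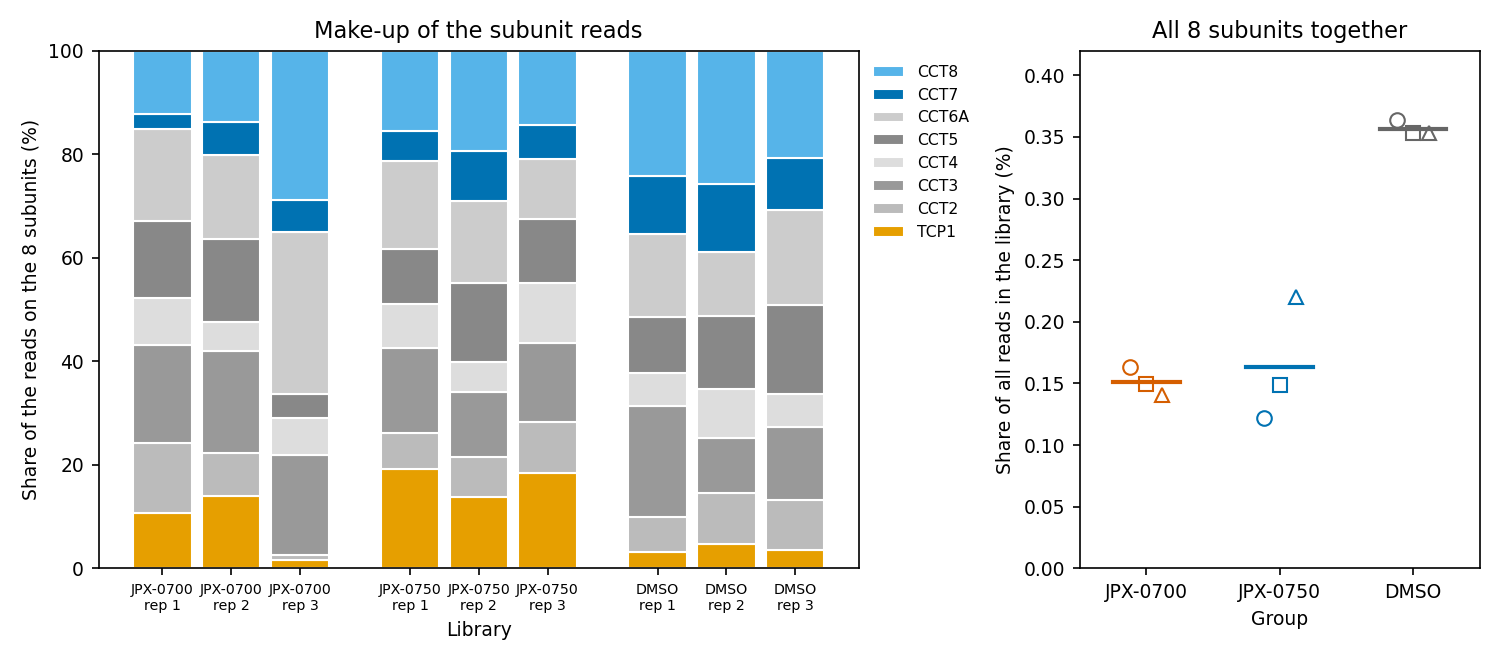
Each bar is 1 library, with the percent of all subunit reads that each of the 8 genes supplied, and the points in the right panel give the percent of all library reads that fell on the 8 genes, with bars at the group means. TCP1 takes 13.8% to 19.2% of the pool in JPX-0750 libraries and 3.19% to 4.67% in DMSO libraries, and the 6 treated points lie between 0.122% and 0.220%, below the DMSO points at 0.353% to 0.364%.

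The first comparison asked how the subunits' transcripts stood with JPX-0700 against DMSO. CCT7 fell, and the other 7 subunits did not pass the test. In the limma fit, 1 of the 8 subunits was lower and 0 were higher at a Benjamini-Hochberg adjusted p under 0.05, where 0.496% of all 12301 genes tested were called lower, 5.28% higher and 5.77% either way. At an unadjusted p under 0.05 the count was again 1 of 8, against 19.6% of all genes. The fitted log2 fold change was below 0 for 7 of the 8, against 46.5% of all genes. Their median was -0.73, against 0.14 over all genes. No JPX-0700 library overlapped DMSO for 2 subunits, both lower (CCT5 and CCT7), where 10.3% of all genes were separated in that direction, and for 0 in the higher direction, where 16.5% were.

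CCT7, the eta subunit of the strong ATP side, had 166, 317 and 450 normalised counts with JPX-0700, against 1003, 1129 and 779.5 with DMSO. The highest JPX-0700 library was well below the lowest DMSO library. The means were 311 ± 142 with JPX-0700 and 970 ± 177 with DMSO (SD, n = 3 each), and CCT7 fell by 1.74 on the log2 scale (± 0.50 SE, 95% interval -2.78 to -0.69, limma adjusted p = 0.0471). The adjusted p is close to the threshold. Over 20 alternative settings the log2 fold change stayed between -2.47 and -1.34, and 10 of the 20 kept the adjusted p under 0.05. It was 0.200, 0.169 and 0.157 without DMSO replicate 2, DMSO replicate 1 and JPX-0700 replicate 1, and 0.0122 without JPX-0700 replicate 3.

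CCT5, the epsilon subunit, mutated in a hereditary sensory neuropathy, was the other subunit whose groups did not overlap. It had 834, 798 and 339 normalised counts with JPX-0700, against 946 (replicate 1), 1204 and 1321 with DMSO. All JPX-0700 values lay below the DMSO values, but replicate 1 of each group lay close together. The log2 fold change was -0.91 ± 0.47 (limma adjusted p = 0.292), so it did not pass. CCT2, the beta subunit, had 751, 410 and 77.8 with JPX-0700, against 585, 835 and 737 with DMSO, so JPX-0700 replicate 1 lay inside the DMSO range and replicate 3 far below it. Its log2 fold change was -1.30 ± 0.66 (adjusted p = 0.291). CCT4, the delta subunit, had 498, 276 and 511 with JPX-0700, against 572, 803 and 486 with DMSO, which overlapped (-0.56 ± 0.51, adjusted p = 0.562).

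On the weak ATP side, CCT8, the theta subunit, depended on 1 library. It had 677 and 682 normalised counts in JPX-0700 replicates 1 and 2 but 2079 in replicate 3, against 2133, 2192 and 1586 with DMSO. Replicate 3 lay within the DMSO range and the others lay far below it. The log2 fold change was -0.98 ± 0.47 (limma adjusted p = 0.256), and it was -1.52 without JPX-0700 replicate 3 (adjusted p = 0.0222). CCT6A, the zeta subunit, also split by library, with 982 and 812 in JPX-0700 replicates 1 and 2 and 2262 in replicate 3. The DMSO values were 1413, 1053 and 1399 (-0.07 ± 0.44, adjusted p = 0.948). Replicate 3 with JPX-0700 lay above every DMSO library, and replicates 1 and 2 lay below every one. CCT3, the gamma subunit, had 1060, 984 and 1398 with JPX-0700, against 1899, 922 and 1087 with DMSO, and the groups overlapped (-0.13 ± 0.43, adjusted p = 0.894).

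TCP1, the alpha subunit and the 1 that gave the complex its older name, was the subunit with a fitted change above 0. It had 589.9 and 697 normalised counts in JPX-0700 replicates 1 and 2 and 108 in replicate 3, against 282, 399 and 274 with DMSO. Replicates 1 and 2 lay above every DMSO library, and replicate 3 lay below every one. The log2 fold change was 0.18 ± 0.61 (limma adjusted p = 0.896). It was 1.03 without JPX-0700 replicate 3 and it turned negative with each library scaled to the same total (-0.55), with TMM factors (-0.29), with quantile normalisation (-0.06) and with limma-voom on the recovered reads (-0.38). No direction for TCP1 with JPX-0700 can be given from these libraries.

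**Figure D2:**
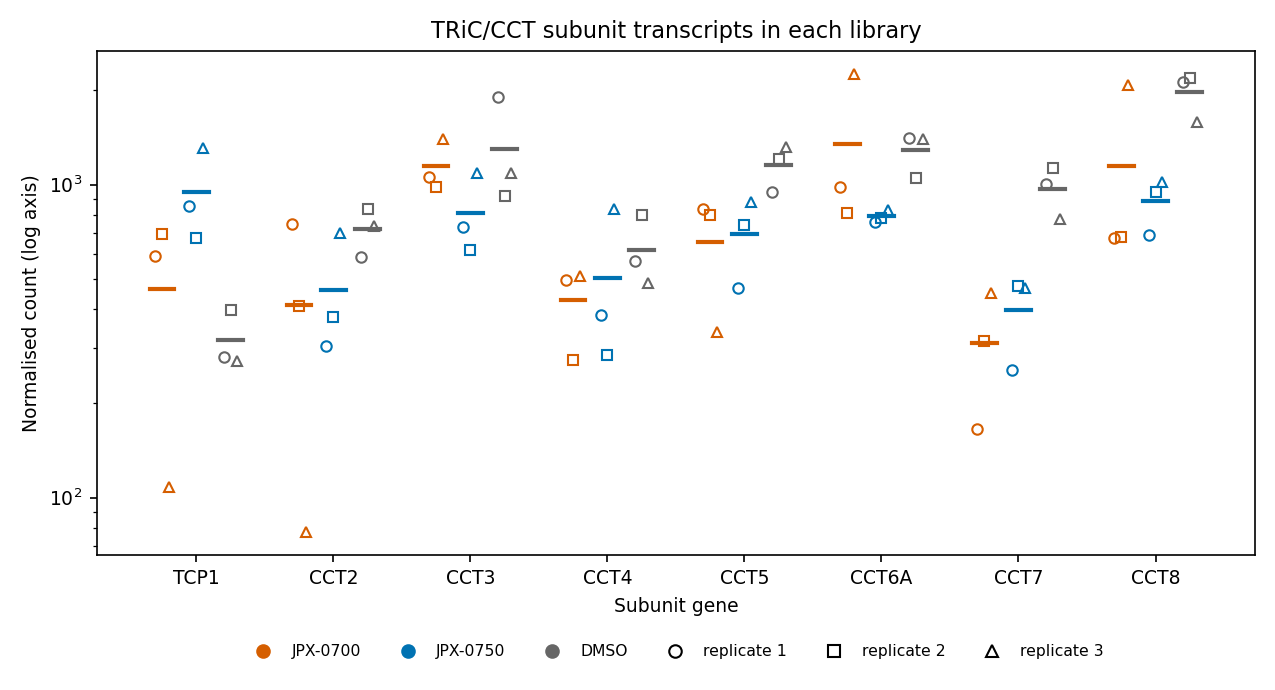
Normalised counts of each subunit on a log axis, with 1 point per library and a bar at each group mean, in the order JPX-0700, JPX-0750 and DMSO. CCT7 points of both compounds (166 to 473) lie below its DMSO points (779.5 to 1129), and TCP1 points of JPX-0750 (678 to 1311) lie above its DMSO points (274 to 399).

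The second comparison set JPX-0750 against DMSO. No subunit passed the test, and the subunits with the smallest p were TCP1, higher by means, and CCT7 and CCT8, lower by means. In the limma fit 0 of 8 subunits were called in either direction, where 3.9% of all genes tested were called higher, 0.0732% lower and 3.98% either way. At an unadjusted p under 0.05 there were 3 of 8, against 14.2% of all genes. Limma-voom, chosen after seeing the data, called 2, CCT7 and CCT8, both lower, where it called 94 of 12301 genes lower and 677 higher. The planned fit to the 6 libraries of the comparison alone called 1, TCP1, higher, where 726 genes were called higher and 69 lower. Without JPX-0750 replicate 3 it was 0 subunits in either direction. The fitted change was below 0 for 7 of the 8, against 42.5% of all genes, and the median was -0.71, against 0.26 over all genes. The groups did not overlap for 4 subunits that were lower (CCT5, CCT6A, CCT7 and CCT8), where 9.18% of all genes were so separated, and for 1 that was higher (TCP1), where 19.7% were.

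TCP1 had 856, 678 and 1311 normalised counts with JPX-0750, against 282, 399 and 274 with DMSO. The lowest JPX-0750 library was above the highest DMSO library. The means were 948 ± 327 with JPX-0750 and 318 ± 69.9 with DMSO (SD, n = 3 each), and the log2 fold change was 1.54 ± 0.61 (95% interval 0.25 to 2.82, unadjusted p = 0.0216, limma adjusted p = 0.227). It stayed above 0 under each of the 20 alternatives. The adjusted p came under 0.05 in 3 of them, at 0.0154 without JPX-0700 replicate 3, at 0.0391 with the 6 libraries of the comparison alone, and at 0.0455 without the 3 libraries that detected the fewest genes. JPX-0700 replicate 3 is in neither group compared, so leaving it out kept the TCP1 means and changed the shared estimate of spread.

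CCT7 had 257, 473 and 466 normalised counts with JPX-0750, against 1003, 1129 and 779.5 with DMSO. Every JPX-0750 library was below every DMSO library, as with JPX-0700. The log2 fold change was -1.32 ± 0.50 (unadjusted p = 0.0162, limma adjusted p = 0.190). CCT8 had 692, 950.4 and 1019.6 with JPX-0750, against 2133, 2192 and 1586 with DMSO, again with no overlap. Its log2 fold change was -1.16 ± 0.47 (unadjusted p = 0.0238, adjusted p = 0.237). The adjusted p came under 0.05 in 3 of the 20 alternatives for CCT7 and in 5 for CCT8.

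The remaining subunits were lower by means but further from the threshold. CCT6A had 760.0, 782 and 831 normalised counts with JPX-0750, against 1413, 1053 and 1399 with DMSO. The JPX-0750 values lay within a narrow band below the DMSO range, and the log2 fold change was -0.69 ± 0.44 (limma adjusted p = 0.506). CCT5 had 469, 741 and 879.6 with JPX-0750, against 946, 1204 and 1321 with DMSO, without overlap (-0.77 ± 0.47, adjusted p = 0.478). CCT2 had 305, 377 and 699.7 with JPX-0750, against 585, 835 and 737 with DMSO, and 1 JPX-0750 library reached the DMSO range (-0.72 ± 0.66, adjusted p = 0.660). CCT3 had 733, 618 and 1086 with JPX-0750 (-0.65 ± 0.43, adjusted p = 0.524), and CCT4 had 383, 286 and 835 (-0.43 ± 0.51, adjusted p = 0.746). JPX-0750 replicate 3 gave the highest value of both, within the DMSO range for CCT3 and above every DMSO library for CCT4.

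**Figure D3:**
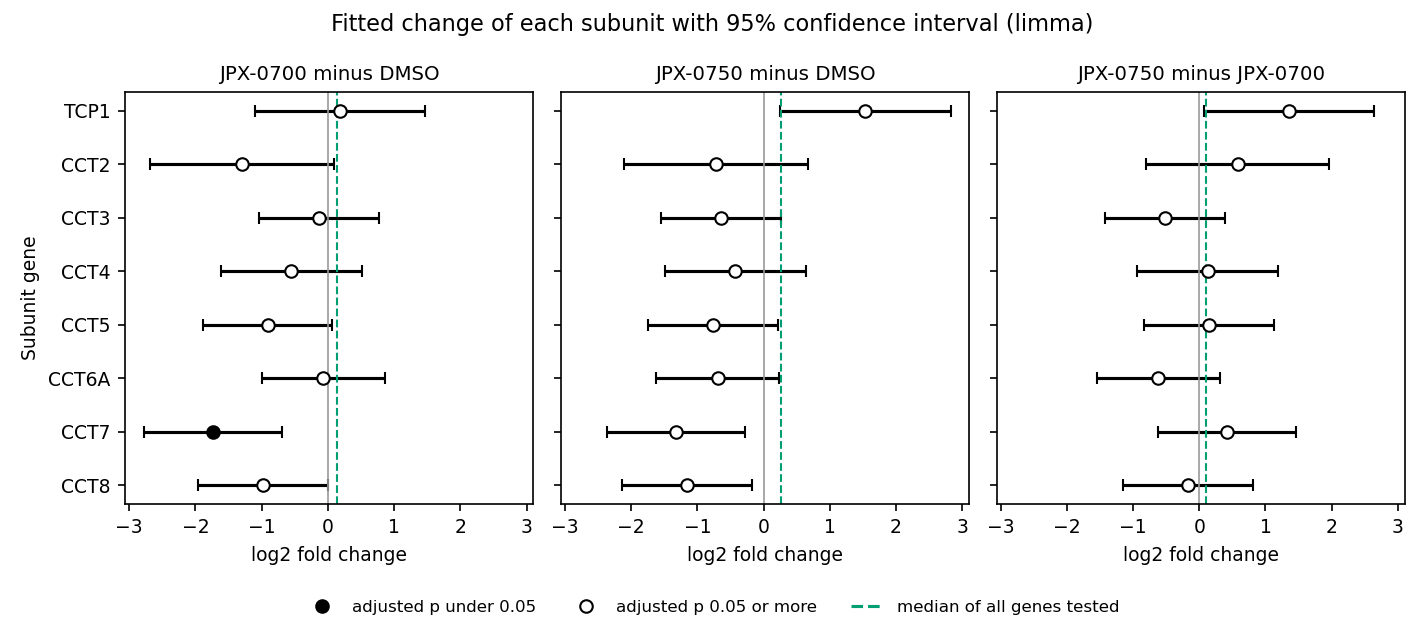
Fitted log2 fold change of each subunit (points) with its 95% interval (bars) for JPX-0700 minus DMSO, JPX-0750 minus DMSO and JPX-0750 minus JPX-0700; a filled point has an adjusted p under 0.05, and the dashed line is the median of all genes tested. Only CCT7 with JPX-0700 (-1.74) is filled, and the TCP1 interval with JPX-0750 (0.25 to 2.82) lies above 0.

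The third comparison set the compounds against each other, with 8 subunits compared for this 1 pair and p-values adjusted over all genes. The comparisons with DMSO share the DMSO libraries, so likeness between them is not a separate result. No subunit passed the limma test between JPX-0750 and JPX-0700, with adjusted p from 0.848 to 0.983, and 0% of all genes tested were called (3.21% at an unadjusted p under 0.05, and 1 of the 8 subunits). TCP1 averaged 948 ± 327 normalised counts with JPX-0750 and 465 ± 313 with JPX-0700, a log2 difference of 1.36 with a 95% interval of 0.08 to 2.64 (unadjusted p = 0.0391, adjusted p = 0.848). The TCP1 groups overlapped, since JPX-0700 replicate 2 (697) lay above JPX-0750 replicate 2 (678). The compounds' libraries were separated for 0 of the 8 subunits, where 4.72% of all genes were separated with JPX-0750 higher and 3.63% with JPX-0750 lower. The fitted difference was below 0 for 3 of the 8, against 46.3% of all genes.

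The intervals for the other 7 subunits all held 0. CCT7 averaged 399 ± 123 with JPX-0750 and 311 ± 142 with JPX-0700, a log2 difference of 0.42 with an interval of -0.63 to 1.46. CCT8 averaged 887 ± 173 with JPX-0750 and 1146 ± 808 with JPX-0700, a log2 difference of -0.17 (-1.16 to 0.81). CCT6A averaged 791 ± 36.5 with JPX-0750 and 1352 ± 793 with JPX-0700, a log2 difference of -0.62 (-1.55 to 0.31). The wide spread of CCT6A and CCT8 with JPX-0700 came from replicate 3, which was the highest in both. For CCT2 the interval was -0.81 to 1.97, for CCT3 -1.43 to 0.39, for CCT4 -0.94 to 1.20 and for CCT5 -0.83 to 1.13. These intervals do not show that the compounds act alike on the subunits.

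The TCP1 locus holds a second row, that of the snoRNA in its intron. Libraries were primed on poly(A), and which form of RNA gave the reads on this row was not tested. SNORA20 rose in counts with both compounds. It had 327, 190.1 and 364 normalised counts with JPX-0700, 537, 514 and 483 with JPX-0750, against 0, 0.767 and 3.23 with DMSO. The DMSO values rest on 0, 2 and 6 reads in the deepest libraries, and the treated values on 51 to 290 reads. The log2 fold changes over DMSO were 7.18 ± 0.83 with JPX-0700 (limma adjusted p = 1.58e-05), and 8.03 ± 0.83 in the JPX-0750 libraries (3.95e-06), and they ran from 5.54 to 7.74 and from 6.38 to 8.59 over the alternatives. Between the compounds the difference was 0.85 ± 0.83 (adjusted p = 0.863).

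SNORA20 did not follow its host gene's counts library by library. JPX-0700 replicate 3 had 39 reads on TCP1, the fewest of the 9 libraries, and 131 on SNORA20, or 3.36 SNORA20 reads per TCP1 read. The other treated libraries had 0.273 to 0.758 SNORA20 reads per TCP1 read, and DMSO libraries had 0 to 0.0118. The TCP1 row and the SNORA20 row are counted apart, and whether a read within the snoRNA could also be given to TCP1 is not stated. SNORA29, in another TCP1 intron, had at most 13.8 normalised counts, and SNORA15, inside CCT6A, was at 0 in every library. ACAT2 overlaps the 3′ end of TCP1 by 615 bases on the opposite strand, and its normalised counts ran from 18.4 to 33.3 with JPX-0700, from 6.66 to 36.4 with JPX-0750 and from 0 to 10.8 with DMSO. COMMD1 overlaps CCT4 by 281 bases on the opposite strand and TSACC overlaps CCT3 by 979, and no source used here says which strand was counted. Reads shared with CCT6A copies cannot be placed with certainty; CCT6P1 and CCT6P3 had at most 26.1 and 24.0 normalised counts.

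**Figure D4:**
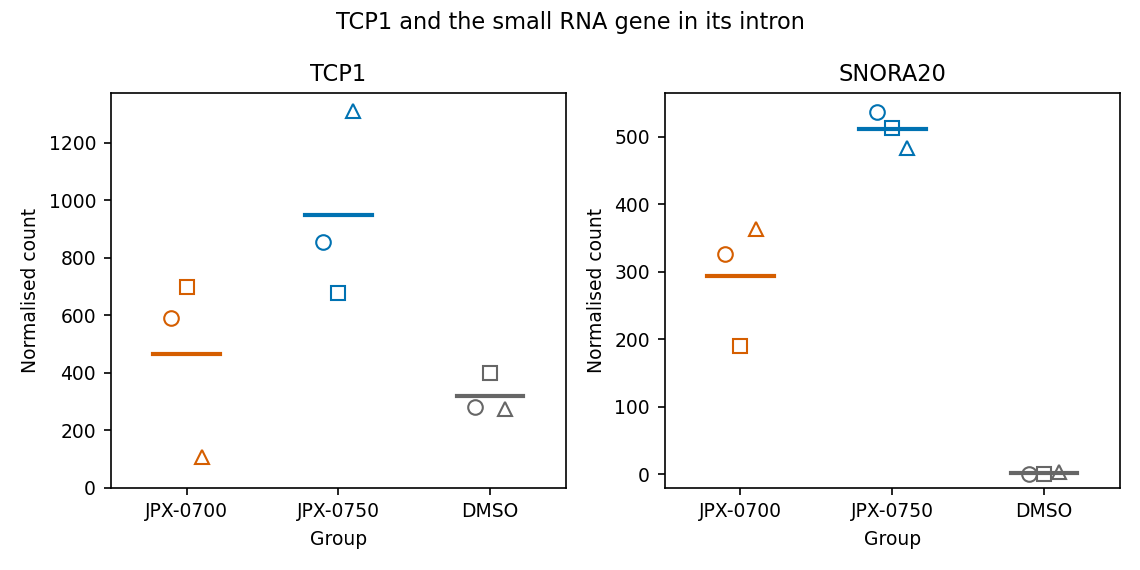
Normalised counts of TCP1 (left) and of SNORA20 (right), with 1 point per library, the point shape giving the replicate, and a bar at each group mean. The 6 treated libraries lie at SNORA20 values of 190.1 to 537 and the 3 DMSO libraries at 0 to 3.23, while TCP1 spans 108 to 1311 in treated libraries and 274 to 399 in DMSO libraries.

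Heat shock factor HSF1, the main activator of chaperone genes under protein stress, binds inverted repeats of the letters GAA, and CCT genes are reported among its targets in mammalian cells. The RefSeq promoter windows run from 250 bases before to 50 bases after a transcript start in GRCh38, which need not be the outermost start of the gene. They were therefore read for GAANNTTC and TTCNNGAA on both strands. A window was found for 7 of the 8 subunits, with 9 windows in all because CCT2 and CCT4 have 2 each. Either motif stood in 3 of the 9 windows, 1 each of TCP1, CCT2 and CCT4, against 13.5% of 35116 windows in the table (6.77% for GAANNTTC and 7.74% for TTCNNGAA). The matches are printed because the subunits that hold them had different counts with JPX-0750, above DMSO for TCP1 and overlapping DMSO for CCT2 and CCT4. The capitals mark the match.
TCP1, chr6:159789750-159789852, minus strand: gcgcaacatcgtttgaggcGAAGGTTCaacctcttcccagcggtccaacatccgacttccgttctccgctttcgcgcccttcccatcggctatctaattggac
CCT2, chr12:69585790-69585817, plus strand: ccggagcgaaGAAATTTCtagtgtggga
CCT4, chr2:61888607-61888628, minus strand: cggcgccgctTTCTGGAAggtt

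The TCP1 match starts 231 bases before the annotated start and lies outside annotated exons. The CCT2 match starts 89 bases before the start of its window's transcript, but it lies inside the CCT2 span given above, downstream of the gene's outermost start. The CCT4 match starts 38 bases after the start of its own window's transcript. GGGCGG, the letters that Sp1-type factors bind, stood in 6 of the 9 windows (45.0% of all), and CCAAT, the letters of the CCAAT box, in 4 (34.6%). TGACGTCA, the cyclic AMP response element, stood in 0 (1.85%). These are matches of letters and do not show binding in these cells.

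The genes that work with the barrel were read next, beginning with those that deliver clients or regulate it. Of the prefoldin genes, 5 of 6 were tested and 0 passed with either compound. Among all genes tested, 5.77% were called either way with JPX-0700 and 3.98% with JPX-0750. At those shares 0 calls in so short a list say little. Over the 20 alternative settings up to 1 prefoldin gene was higher with each compound. The prefoldin median log2 fold change was 1.20 with JPX-0700 and 0.69 with JPX-0750, opposite in sign to the subunits' median. PFDN4 averaged 647 normalised counts with JPX-0700 and 188 with DMSO, without overlap (1.74 ± 0.53, limma adjusted p = 0.0645). PFDN1 (1.20, adjusted p = 0.144) and PFDN5 (1.22, 0.157) also had positive changes with JPX-0700. VBP1 was the 1 tested prefoldin gene that went the other way with JPX-0700. It averaged 67.1 normalised counts against 150 with DMSO, without overlap (-1.30 ± 0.74, limma adjusted p = 0.348). With JPX-0750, PFDN5 (1.08, 0.292), VBP1 (-1.20, 0.486) and PFDN2 (0.70, 0.525) had the smallest p. In the phosducin-like family, whose members bind the barrel and adjust its activity, 3 of 4 genes were tested and 0 passed with either compound (medians 0.20 with JPX-0700 and -0.74 with JPX-0750). Among the prefoldin-like and R2TP genes, which assemble RNA polymerases and other large complexes, 8 of 10 were tested and 0 passed (medians -0.29 and -0.49). The same 5.77% and 3.98% of all genes stand beside both of these lists. Over the alternative settings 0 phosducin-like genes passed. Up to 1 prefoldin-like or R2TP gene was higher and up to 2 were lower with each compound.

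Actins and tubulins came first among client genes. With JPX-0700, 2 of 15 fell and 0 rose (median -0.90), where 0.496% of all genes tested were called lower and 5.28% higher. With JPX-0750 0 of 15 passed in either direction (median -0.41), where 0.0732% were called lower and 3.9% higher. The count that fell with JPX-0700 was 0 with the 6 libraries of the comparison alone, 4 with total-sum scaling or quantile normalisation, and 6 without the 3 libraries that detected the fewest genes. Without those 3 libraries, 3 were higher and 2 lower with JPX-0750. TUBA1B, an alpha-tubulin, had 700.5, 1640 and 3360 normalised counts with JPX-0700, against 10102, 10048 and 3803 with DMSO. JPX-0700 replicate 3 was just under DMSO replicate 3, and the others were far apart. TUBA1B fell by 2.21 (± 0.60, limma adjusted p = 0.0346), TUBA4A fell by 2.79 (± 0.78, adjusted p = 0.0425), and the beta-tubulin TUBB did not pass (-2.84 ± 0.85, adjusted p = 0.0589). Without DMSO replicate 1, DMSO replicate 2 or JPX-0700 replicate 1 the adjusted p was 0.170, 0.145 and 0.140 for TUBA1B and 0.272, 0.199 and 0.0857 for TUBA4A, and for TUBA4A it was also 0.0674 and 0.0774 without JPX-0750 replicate 1 or 2. With JPX-0750, TUBB (-2.47, 0.136), TUBA1B (-1.23, 0.365) and ACTA2 (3.31, 0.369) had the smallest p. Tubulin genes have near-identical copies, so the split of reads among them is uncertain.

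None of the 15 other reported clients tested passed with either compound (medians -0.51 with JPX-0700 and -0.32 with JPX-0750), against 5.77% and 3.98% of all genes called either way. That count moved: 3 were lower with JPX-0700 without JPX-0700 replicate 2, 2 with total-sum, TMM or quantile scaling, and 4 were lower with JPX-0750 without the 3 libraries that detected the fewest genes. The WD40 protein gene GNB1, a G protein beta subunit, had a log2 fold change of -1.80 with JPX-0700 (limma adjusted p = 0.0814), HDAC3, a histone deacetylase, -2.23 (0.0866), and CCNE1, cyclin E1, -2.73 (0.114). With JPX-0750 the smallest p belonged to CDC20, an activator of the anaphase-promoting complex (-1.75, 0.184), VHL, a tumour suppressor (-1.32, 0.248), and RPTOR, a partner of mTOR (2.73, 0.394). STAT3, both a reported client and a named target of the compounds, averaged 144 ± 97.5 normalised counts with JPX-0700, 160.4 ± 124 with JPX-0750 and 165 ± 106 with DMSO (adjusted p = 0.891 and 0.921). Transcript counts do not measure the STAT3 protein. Of the 6 tubulin cofactors, which act on tubulin after it leaves the barrel, 0 passed with either compound (medians 0.81 and 0.60). That count stands against the same 5.77% and 3.98% of all genes called either way. Over the alternative settings up to 1 cofactor was lower with JPX-0700, and up to 2 were higher and 1 lower with JPX-0750.

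Heat shock genes were read beside the subunits. With JPX-0700, 9 of the 17 heat shock genes tested rose and 0 fell, and with JPX-0750 7 of 17 rose and 0 fell, where 5.28% and 3.9% of all genes tested were called higher. Over the alternatives the counts that rose ran from 6 to 11 with JPX-0700 and from 6 to 9 with JPX-0750. All 17 had a positive log2 fold change with each compound, where 46.5% and 42.5% of all genes were below 0, and the medians were 1.76 and 1.45. BAG3, a cochaperone of HSP70, had 3272, 1666 and 2148 normalised counts with JPX-0700, 1428, 891 and 1246 with JPX-0750, against 57.5, 36.4 and 32.8 with DMSO. DNAJB1, an HSP40 that delivers clients to HSP70, rose by 5.10 on the log2 scale with JPX-0700 and 4.44 with JPX-0750 (limma adjusted p = 2.42e-07 and 1.47e-06). Of the 6 other chaperonins, 1 rose with JPX-0700 and 0 passed with JPX-0750, against the same 5.28% and 3.9% of all genes called higher. HSPD1, the mitochondrial chaperonin that forms a barrel of its own, had 5913, 6269 and 10049 normalised counts with JPX-0700, against 2880, 1613 and 3430 with DMSO, and rose by 1.52 (± 0.42, adjusted p = 0.0391). That call was lost without any 1 of 6 libraries, with adjusted p of 0.0969 and 0.204 without DMSO replicates 1 and 2, 0.0611 and 0.0945 without JPX-0700 replicates 1 and 3, and 0.0585 and 0.0676 without JPX-0750 replicates 1 and 2. It was also lost with total-sum scaling (0.78, adjusted p = 0.211), TMM factors (1.04, 0.173), quantile normalisation (0.84, 0.216), limma-voom (1.07, 0.0799), the replicate block (0.0503) and the 6 libraries of the comparison alone (0.114). CCT6B, a CCT6A paralogue known from testis, had 44.5, 54.6 and 83.3 with JPX-0750, against 0, 8.05 and 15.6 with DMSO, without overlap (3.49 ± 1.47, adjusted p = 0.265).

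**Figure D5:**
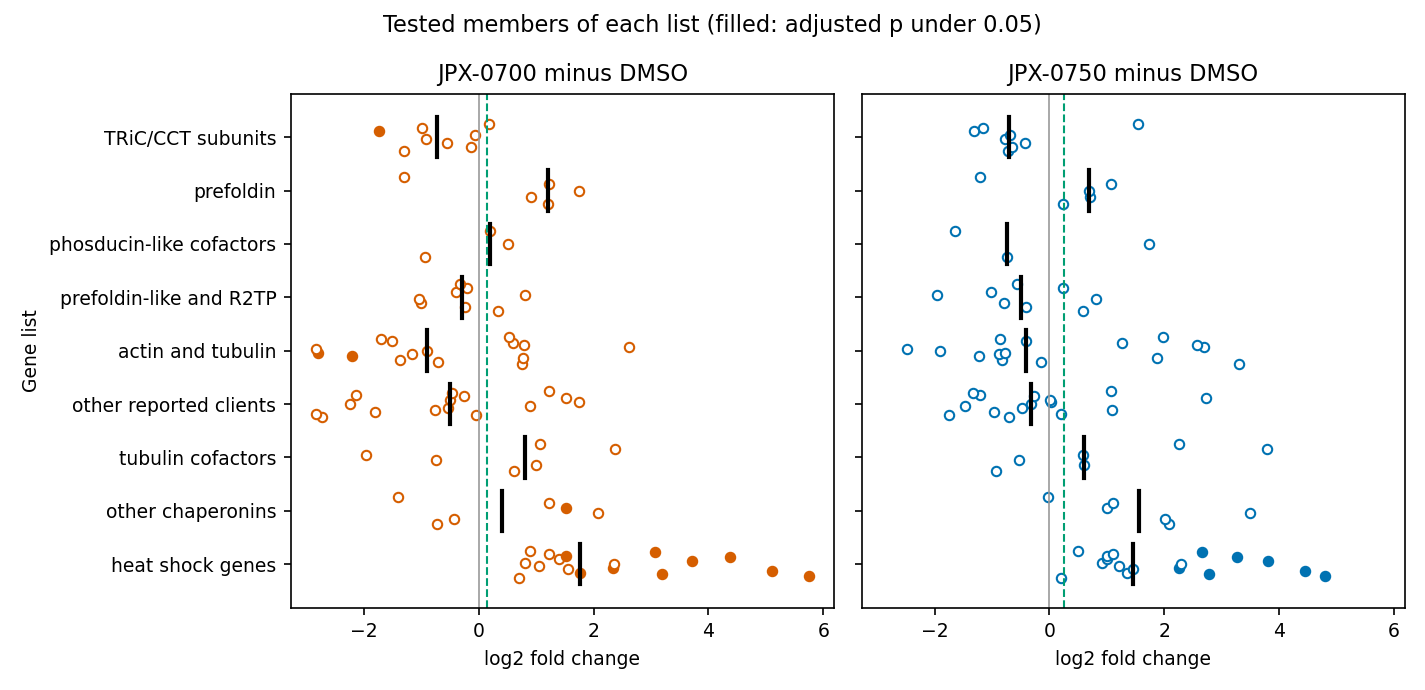
Fitted log2 fold change of each tested gene (points) in the subunit set and 8 lists of related genes, for JPX-0700 minus DMSO and JPX-0750 minus DMSO, with the list median as a bar, a dashed line at the median of all genes tested and filled points for an adjusted p under 0.05. The subunit medians (-0.73 and -0.71) lie below 0 and the heat shock medians (1.76 and 1.45) above it.

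Across all 9 libraries the subunits differed in their distance from a common profile, the mean of their log2 values each centred on its own mean. That profile ran only from -0.43 in JPX-0700 replicate 3 to 0.50 in DMSO replicate 2. A gene without any change would therefore also lie near it, and a small distance does not show that a gene followed the profile. The root mean square distance from that profile was 0.36 for CCT5, 0.37 for CCT4, 0.45 for CCT3, 0.58 for CCT8, 0.59 for CCT6A, 0.64 for CCT7, 0.79 for CCT2 and 1.07 for TCP1. TCP1 was the subunit farthest from the profile, and 3564 of the 7233 other genes (non-subunits with a mean of at least 50 normalised counts) were closer to it. The genes nearest the profile were MYB (0.19), NHP2 (0.20), PSMA3 (0.22), TXNIP (0.24) and SLC39A6 (0.24), where the median gene was at 1.08. MYB encodes a transcription factor of blood progenitors, and it averaged 1323 ± 260 normalised counts with JPX-0700, 1172 ± 253 with JPX-0750 and 1815 ± 122 with DMSO. NHP2, a core protein of the H/ACA snoRNA particles to which SNORA20 belongs, averaged 354 ± 26.8, 314 ± 61.8 and 536 ± 91.9 in the same groups. These distances are taken over the same 9 libraries, with their depth and scaling, for every gene, and the profile includes the subunits themselves.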

How the data were processed

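The authors deposited 1 table of normalised counts of 26929 genes in 9 columns. The build GRCh38, counting by featureCounts 2.0.3, the aligner STAR 2.4.2a, DESeq2, SAMtools 1.4 and FastQC 0.11.9 are named in the submitters' processing notes, but no strand setting or annotation is. Dividing each library's values by its smallest value above 0 gave whole numbers for 100% of them (tolerance 1e-06), so reads were recovered by division, and 1 read was worth 0.383 to 4.61 normalised counts. No molecular identifiers are named, so reads are not independent molecules.

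limma 3.58.1 in R 4.3.3 was fitted to log2(normalised count + 1) over all 9 libraries, with a trend on expression and 6 residual degrees of freedom. Genes with a mean of at least 5 were tested (12301 tested, 14628 not), and all 8 subunits passed that filter. Tests were two-sided and adjusted by Benjamini-Hochberg over all genes tested, with a threshold of 0.05; "rose" and "fell" refer to it. The pseudocount makes folds of low genes smaller. The fit was also run on simulated counts that gave every gene the same spread setting. Those counts held no library unlike its partners, so the run does not test the p-values given here. In each list the 3 genes with the smallest p per comparison were eligible to be named, plus STAT3 and the 5 genes nearest the subunits' profile; those named in the text come from these, and small RNAs, pseudogenes and overlapping genes at the subunits' loci were added. Subunits and lists were chosen with earlier results of these data known. Gene coordinates and promoters are RefSeq's and transcript structures GENCODE 29's, both on GRCh38.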

Additional observations from a re-analysis of the deposited data

How the results depend on the processing

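With JPX-0700 the count of subunits called was 1, and it was 0 without a filter on low values, 0 with the replicate block and 0 with the 6 libraries of the comparison alone. It was 2 with total-sum scaling, 2 with quantile normalisation and 2 (CCT7 and CCT8) without the 3 libraries that detected the fewest genes, and 0 to 2 with 1 library left out. With JPX-0750 it was 0, against 2 (CCT7 and CCT8) with total-sum scaling, 1 (CCT8) with quantile normalisation, 2 with limma-voom, 1 (TCP1, higher) with the 6 libraries alone, 3 (TCP1, CCT7 and CCT8) without the 3 libraries, and 0 to 2 with 1 left out; between the compounds it was 0 throughout. Total-sum scaling moved the median of all genes to -0.52 with JPX-0700 and -0.25 with JPX-0750, and the genes called higher and lower to 378 and 279, and to 304 and 57, against 649 and 61, and 480 and 9. Limma-voom and the fit without 3 libraries were chosen after seeing the data. The count models of edgeR and DESeq2 were not run. Whether libraries with the same replicate number were handled together is not stated. It was examined only by correlations and by a fit with a replicate block, neither of which can show how libraries were handled. The 9 same-numbered pairs had correlations of deviations from -0.216 to 0.177, 1 of them over 0.1. Between JPX-0700 and JPX-0750 the same-numbered pairs had 0.050, 0.177 and 0.092, and differently numbered pairs ran from -0.144 to 0.079. Same-numbered pairs with DMSO ran from -0.216 to 0.014. Under the replicate block CCT7 had an adjusted p of 0.0524.

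Over 480 refits of single subunit changes, 23 reversed in sign, in 7 subunit comparisons, none of them called. TCP1 with JPX-0700 was 0.18 and became -0.55 with total-sum scaling, -0.29 with TMM, -0.063 with quantile normalisation and -0.38 with limma-voom, and ran from -0.31 to 1.03 with 1 library left out. CCT3 with JPX-0700 became 0.18 without DMSO replicate 1 and 0.029 without the 3 libraries (-0.34 to 0.18 with 1 left out), and CCT6A became 0.09, 0.22 and 0.0049 without JPX-0700 replicates 1 and 2 and DMSO replicate 1. Between JPX-0750 and JPX-0700, CCT8 became 0.019 with total-sum scaling, 0.052 with quantile normalisation and 0.25 without the 3 libraries, and CCT2, CCT5 and CCT4 became -0.71, -0.47 and -0.16 without them. With 1 library left out CCT8 ran from -0.44 to 0.36, CCT2 from -0.36 to 1.27, CCT5 from -0.28 to 0.41 and CCT4 from -0.31 to 0.45. JPX-0700 replicate 3 gave the sign change of CCT8, CCT2 and CCT5, JPX-0750 replicate 3 that of CCT4 and also of CCT5 (-0.05), and JPX-0700 replicate 2 also that of CCT4 (-0.16). The cause was not tested. With 28 to 814 reads per subunit in treated libraries, the standard errors of 0.43 to 0.66 limit what could be detected.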
